A study of Mus musculus with 6 samples.

Results

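The genes of iron handling and heme breakdown described here were 10 in number: Tfrc, Slc11a2 and Slc25a37 for uptake and transport of iron, Fth1, Ftl1 and Ncoa4 for its storage in ferritin, and Hmox1, Blvra, Blvrb and Flvcr1 for the breakdown and export of heme. They were taken by name from a deposited table of normalized values for 12179 genes, and their read counts from a table of 27179 genes. The symbol column held 9 of them, and Flvcr1 was found there by its gene identifier under the older name Mfsd7b. The RNA came from bone marrow cells sorted as long-term hematopoietic stem cells (LT-HSCs, CD150+CD48-LSK) of C57BL/6 mice at 8 weeks of age. WT mice (3 libraries) were compared with Foxm1 heterozygous mice (Foxm1 HET, 3 libraries). The Foxm1 HET titles read FoxM1flPlus, which names the floxed allele but no Cre. The study crossed this allele to Tie2-Cre, active in endothelial and blood cells, or Mx1-Cre, induced by poly(I:C). In another assay its methods use the name Foxm1 HET for Tie2-Cre Foxm1 fl/+ mice, and its controls elsewhere carried Foxm1 fl/+ without Cre. For the sequenced mice the labels state only the genotypes given above.

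Cells take up transferrin-bound iron through a surface receptor, move it out of endosomes and into mitochondria for heme, and keep the rest in the cytosol inside ferritin, a shell of heavy and light chains. Heme is taken apart by heme oxygenase into iron, carbon monoxide and biliverdin, which biliverdin reductases then convert to bilirubin. Much of this is controlled after transcription, because iron regulatory proteins bind hairpins called iron-responsive elements (IREs) in messenger RNA. Bound in a 5′ untranslated region they block translation, and bound in the 3′ untranslated region of the transferrin receptor they protect the messenger from decay.

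The IREs found in members are shown because they tie these messengers to control by iron. The search was for a C, then 5 stem bases, the loop CAGTGN with a last base other than G, and 5 bases that pair with the first 5 (G-T pairs allowed), on the sense strand of the untranslated regions of GENCODE M21 transcripts (GRCm38). Such a hairpin was present in 121 of 21877 protein-coding genes (0.553%). Among the members it was found in 3 genes, Fth1, Ftl1 and Tfrc, and among 60 other iron genes in 1, Slc40a1. Each site is printed 5′ to 3′ over 27 bases with the first 5 bases of the loop in capitals.
Fth1, 5′ untranslated region, chr19:9982733-9982759, plus strand: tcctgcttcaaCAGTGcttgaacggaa
Ftl1, 5′ untranslated region, chr7:45459780-45459806, minus strand: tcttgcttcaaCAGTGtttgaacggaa
Tfrc, 3′ untranslated region, chr16:32631220-32631246, plus strand: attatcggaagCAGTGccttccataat
Tfrc, 3′ untranslated region, chr16:32631599-32631625, plus strand: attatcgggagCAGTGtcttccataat
Tfrc, 3′ untranslated region, chr16:32631664-32631690, plus strand: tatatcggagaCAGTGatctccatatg
Tfrc, 3′ untranslated region, chr16:32631711-32631737, plus strand: attatcgggaaCAGTGtttcccataat
Fth1 and Ftl1 have 1 site each ahead of the coding sequence, and the 4 sites of Tfrc follow each other behind it. Other members can carry elements that this strict search does not find, such as the one known in an isoform of Slc11a2. A match of letters is a description and not a measurement of binding, and the read counts below measure RNA, not translation.

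The libraries held between 14573002 and 25798509 counted reads, with the fewest in Foxm1 HET replicate 2, which also had the fewest genes with at least 10 reads (4467, against 5963 to 9894 in the others). Foxm1 had 1182, 2615 and 2942 reads per WT library (replicates 1 to 3) against 659, 5 and 742 per Foxm1 HET library, lower in each Foxm1 HET library. Of 12 HSC markers, 9 to 12 had at least 10 reads in each library, although some genes of the sorting gate had few in several. Slamf1, the gene of CD150, had 2, 1572 and 0 reads per WT library against 8, 0 and 543 per Foxm1 HET library. Ly6a, the gene of Sca-1 in the LSK gate, had 125, 4 and 2 reads against 2261, 2 and 1597. Kit, also of that gate, had at least 10720 reads in every library. Summed TPM (reads per gene length, scaled to the same total in each library) of the HSC markers were 1380 to 4620. Those of 10 neutrophil markers, led by Ngp, which the gate should leave out, were 14500 to 36100 in 5 libraries and 3050 in Foxm1 HET replicate 3. Summed TPM of the erythroid markers ran from 139 to 802 in WT and from 48.9 to 258 in Foxm1 HET, led by Slc4a1. Gata1 and Hba-a1 were at 0 reads in every library, but other globin genes had reads. Hba-a2 had 70, 508 and 1009 per WT library against 332, 2 and 0 per Foxm1 HET library. For Hbb-bs they were 1, 920 and 966 against 145, 507 and 1. Macrophage markers, led by Cd68, summed to between 10.3 and 218 TPM, with C1qa, C1qb and Spic at 0 in every library. The part of these markers in the results below was not tested. In bulk RNA, fewer cells of a type and less RNA per cell cannot be told apart.

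No member differed between the genotypes past the test. The low-count filter kept 8 of the 10 genes. Their fitted levels were higher in Foxm1 HET LT-HSCs for 3 and lower for 5, and edgeR's quasi-likelihood test gave 0 of them an adjusted p under 0.05, where it did so for 27 of all 8195 genes tested (0.329%). None had an unadjusted p under 0.05 either, against 6.03% of all genes tested. DESeq2 called 0 of the 6 members to which it gave an adjusted p (194 of all genes), with none given for Ftl1 and Blvrb, and limma-voom called 0 of the 8 (4 of all genes). The libraries of the genotypes overlapped for all 10 genes on the scale of log2 CPM (log2 of scaled counts per library size, in the usual CPM unit), where 8.68% of all genes tested did not overlap. The median log2 fold change of the 8 genes was -0.90, beside -0.26 over all genes tested. Without WT replicate 2 the medians were 0.24 and 0.23, but the filter then kept 9 members, with 5 higher and 4 lower. A median over 9 members is not that of the 8, so it does not show that this library set the direction. Of the 8 genes, only Blvrb changed direction in that fit, from -4.33 to 0.24.

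**Figure D1:**
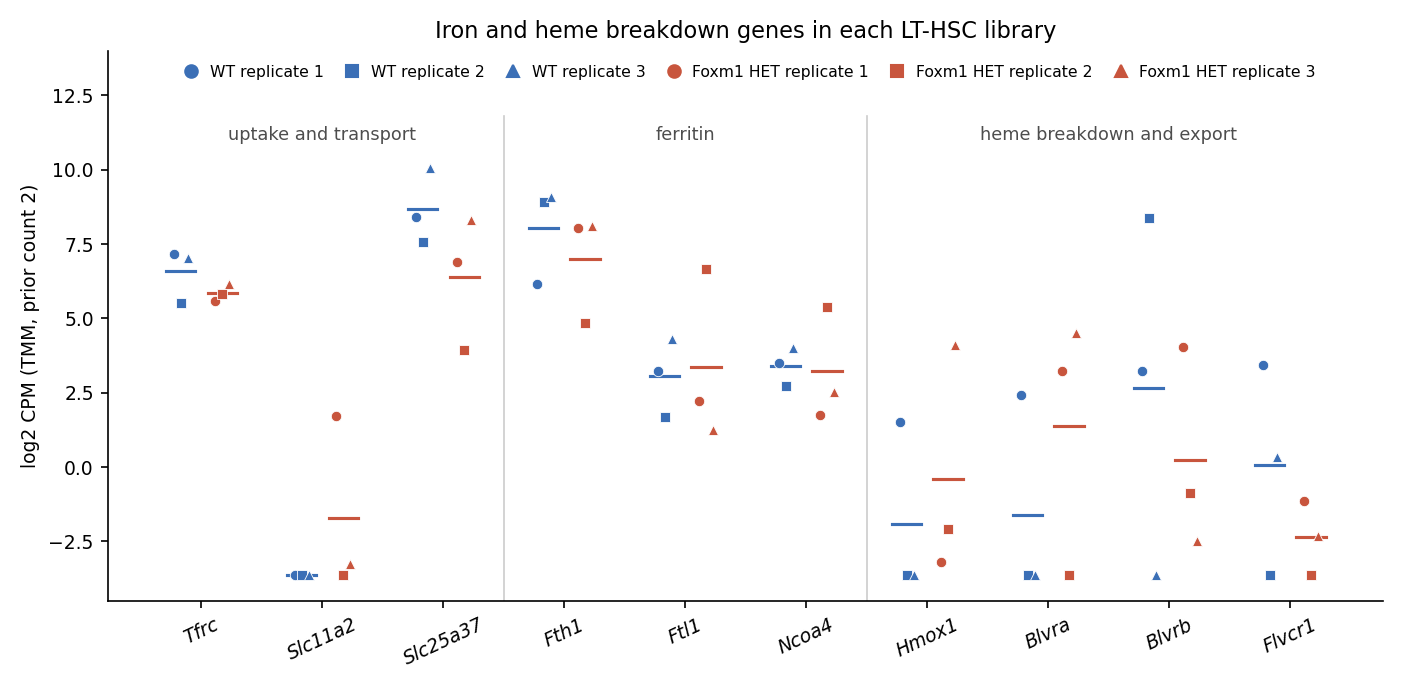
Level of each gene (log2 CPM, vertical axis) in the 3 WT (blue) and 3 Foxm1 HET (red) libraries, with the replicate number as the symbol and the genotype mean as a bar. Tfrc stayed between 5.53 and 7.18, while Slc11a2 and the genes of heme breakdown and export fell to the lowest value, -3.62, which stands for 0 reads, in 1 or more libraries.

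Tfrc encodes the transferrin receptor (CD71), the main entry of iron into blood cells. It lies on chromosome 16 from 32608896 to 32632794 in GRCm38, and none of its 50-base stretches is found in a second annotated gene. It had 3197, 1041 and 2075 reads per WT library (replicates 1 to 3) against 1809, 364 and 3013 per Foxm1 HET library. WT replicates 1 and 3 were the highest on log2 CPM and WT replicate 2 the lowest of all 6, so on this scale the Foxm1 HET libraries lay inside the range of WT. That position depended on the scaling factors. In CPM without them, Foxm1 HET replicate 2 was the lowest of all 6, below every WT library. Foxm1 HET replicates 1 and 3 stayed inside the range of WT, and the genotypes still overlapped. The mean log2 CPM came to 6.57 ± 0.91 (SD, n = 3) for WT beside 5.85 ± 0.302 (SD, n = 3) for Foxm1 HET. By edgeR's test Tfrc differed by -0.87 ± 2.03 (log2 fold change with its standard error, approximate 95% interval -4.84 to 3.11, adjusted p = 0.998). With any single library omitted the value lay between -1.26 and -0.50, the latter without WT replicate 1. After scaling, Tfrc was also among the most even of all genes tested, which were not matched to it for level. Its SD of log2 CPM between libraries of one genotype was 0.68, and 1.5% of all genes tested had a lower one. The standard error from edgeR does not follow this SD alone, since it draws partly on the spread of other genes.

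Slc25a37 encodes mitoferrin 1, the carrier that brings iron into mitochondria of erythroid cells. Its reads were 7599, 4322 and 17137 per WT library against 4543, 99 and 13168 per Foxm1 HET library. Foxm1 HET replicate 2 stood far below the rest, and Foxm1 HET replicate 3 lay inside the range of WT. In TPM it reached 105 to 384 in WT and 3.59 to 293 in Foxm1 HET. The mean log2 CPM came to 8.69 ± 1.26 (SD, n = 3) for WT beside 6.38 ± 2.22 (SD, n = 3) for Foxm1 HET, the largest gap among the members found in every library (two-sided exact permutation test, p = 0.2, where 0.1 is the smallest that 3 libraries against 3 allow). The fitted difference was -1.84 ± 1.60 on the same scale (adjusted p = 0.985 by edgeR) and moved between -2.87 and -0.88 with any single library omitted. Of its 50-base transcript stretches, 6.99% occur also in Gm16867, which had 69 and 136 reads in Foxm1 HET replicates 1 and 3 and 0 in the other libraries.

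Slc11a2 (DMT1), which moves ferrous iron out of endosomes, was at the limit of detection. It had 0 reads in each WT library, and 122, 0 and 1 in Foxm1 HET replicates 1, 2 and 3. A count of 0 allows up to 3 reads, or 0.130 to 0.149 CPM in the WT libraries, so only Foxm1 HET replicate 1 lay above that floor. It was left out of the test for low counts, and no fold change is given. These floors cover counting error only.

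Fth1, the ferritin heavy chain with the ferroxidase site, was the most abundant member per gene length in 4 of the 6 libraries. Its TPM were 196, 1260 and 932 per WT library against 962, 32.4 and 1240 per Foxm1 HET library. In each library 93.3% to 99.9% of all genes had a lower TPM. The reads were 1565, 10780 and 8663 per WT library against 10128, 186 and 11597 per Foxm1 HET library. One library of each genotype, WT replicate 1 and Foxm1 HET replicate 2, stood below the other two of its genotype. In log2 CPM those were 8.90 and 9.08 for WT beside 8.05 and 8.12 for Foxm1 HET. The mean log2 CPM came to 8.04 ± 1.64 (SD, n = 3) for WT beside 7.01 ± 1.87 (SD, n = 3) for Foxm1 HET. The fitted log2 fold change, -0.93 ± 1.61 (SE; adjusted p = 0.998 by edgeR), shrank to -0.36 without Foxm1 HET replicate 2 and to -0.13 without scaling factors.

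Ftl1, the light chain that helps ferritin form its mineral core, had far fewer counted reads. They were 204, 71 and 313 per WT library against 174, 649 and 96 per Foxm1 HET library. Foxm1 HET replicate 2, the lowest library for Fth1, was the highest for Ftl1, and the other Foxm1 HET libraries lay within or just below the range of WT. The mean log2 CPM came to 3.07 ± 1.31 (SD, n = 3) for WT beside 3.37 ± 2.88 (SD, n = 3) for Foxm1 HET. Ftl1 was fitted at 1.74 ± 2.73 (log2 fold change, SE; adjusted p = 0.998 by edgeR), which turned to -1.57 without Foxm1 HET replicate 2. The level of Ftl1 is uncertain. Of its 50-base stretches, 50.9% occur also in other genes, led by the copies Ftl1-ps1, Gm15590 and Ftl2-ps, and 44.4% of its exon bases are covered by an unnamed gene on the opposite strand. That gene had 103, 24 and 0 reads per WT library against 3, 33 and 0 per Foxm1 HET library, and how the counting treated strand and repeated sequence is not given in the sources used here. For Fth1 the shared stretches were 1.59%.

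The balance of heavy to light chain was compared within each library, where scaling cancels. Fth1 exceeded Ftl1 by 8.59, 170 and 31.0 times in TPM in WT replicates 1, 2 and 3. In Foxm1 HET the ratios were 65.2, 0.321 and 135. Only Foxm1 HET replicate 2 had more Ftl1 than Fth1. On the log2 scale the ratios came to 5.16 ± 2.16 (SD, n = 3) for WT beside 3.82 ± 4.76 (SD, n = 3) for Foxm1 HET, which is a difference of -1.33 (two-sided exact permutation test, p = 0.8). Without Foxm1 HET replicate 2 the difference was 1.40, in the other direction, and omitting any other single library left it negative. The scale mattered too, as the difference was 0.03 in the normalized values of the authors with all libraries kept.

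**Figure D2:**
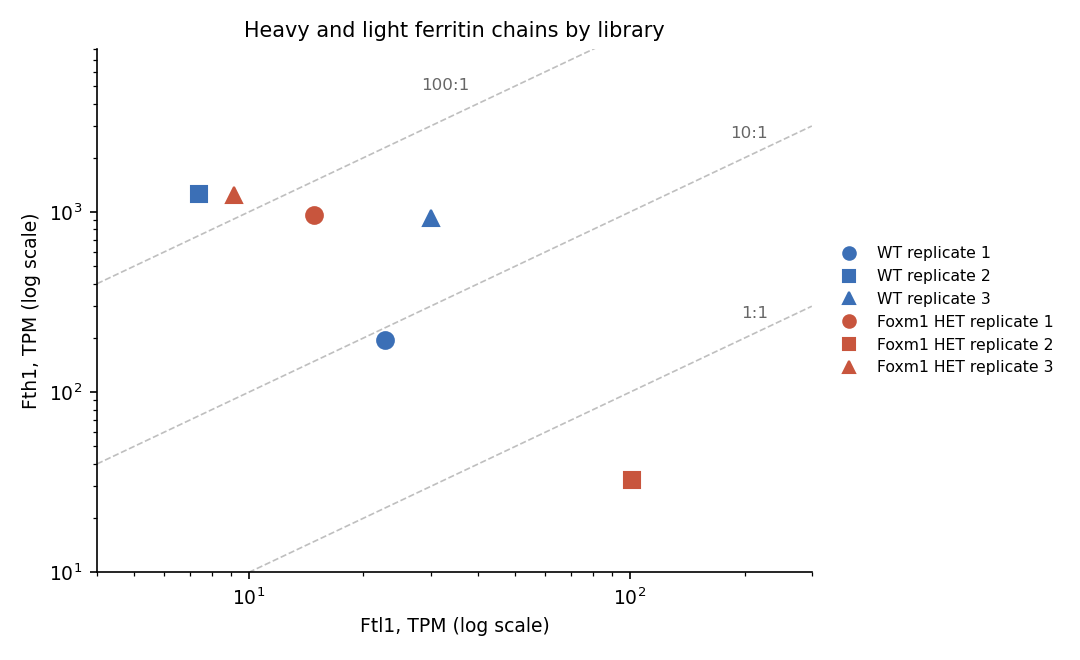
TPM of Fth1 (vertical) against Ftl1 (horizontal) in each library, both axes on a log scale, with dashed lines at ratios of 1, 10 and 100. In 4 libraries Fth1 stood between 932 and 1260 TPM, and Foxm1 HET replicate 2 was the single library under the line of equal levels, with 32.4 TPM of Fth1 and 101 of Ftl1.

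Ncoa4 carries ferritin to the lysosome, where its iron is released. It had 251, 147 and 252 reads per WT library against 124, 270 and 239 per Foxm1 HET library, the narrowest relative range of counts among the members found in every library. After scaling, Foxm1 HET replicate 2 was the highest at 5.39 log2 CPM and Foxm1 HET replicate 1 the lowest at 1.74, with the WT libraries between 2.72 and 3.99. The mean log2 CPM came to 3.41 ± 0.64 (SD, n = 3) for WT beside 3.22 ± 1.92 (SD, n = 3) for Foxm1 HET. The fit had the opposite direction, at 0.59 ± 2.83 (log2 fold change, SE; adjusted p = 0.998 by edgeR). This fitted value turned to -1.27 without Foxm1 HET replicate 2. Of its 50-base stretches, 17.9% occur also in Gm6768.

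The 4 genes of heme breakdown and export were found in some libraries and missing from others of the same genotype. Hmox1, the inducible heme oxygenase that opens the heme ring, had 62, 0 and 0 reads per WT library against 1, 1 and 716 per Foxm1 HET library. At least 10 reads were present in 1 library of each genotype, WT replicate 1 and Foxm1 HET replicate 3, and the gene was left out of the test for low counts. In Foxm1 HET replicate 3 it stood at 42.0 TPM, above 88.1% of all genes.

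Blvra, which reduces the main form of biliverdin, had 117, 0 and 0 reads per WT library against 354, 0 and 954 per Foxm1 HET library. Both libraries with Hmox1 also held Blvra, and Foxm1 HET replicate 1 held Blvra with 1 read of Hmox1. Blvra was fitted at 2.60 ± 3.14 (log2 fold change, SE; adjusted p = 0.998 by edgeR). Without WT replicate 1, the one WT library with reads, all remaining WT counts were 0, and the fitted value of 11.13 then rests on the prior count.

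Blvrb, the second biliverdin reductase, which acts also as a flavin reductase and is abundant in red cells, varied the most. It had 206, 7525 and 0 reads per WT library against 623, 3 and 4 per Foxm1 HET library. WT replicates 2 and 3 held the highest and the lowest level of all 6 libraries, so the whole range of the gene lay within 1 genotype. Its SD of log2 CPM within genotype was 4.89, higher than in 97.7% of all genes tested. Its log2 fold change of -4.33 ± 2.49 (SE) had an unadjusted p of 0.0818 and an adjusted p of 0.915 by edgeR, the smallest p among the members. Without WT replicate 2 it was 0.24, so this library alone set its sign.

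Flvcr1, described as an exporter of heme and later also as a choline transporter, had 238, 0 and 19 reads per WT library against 14, 0 and 5 per Foxm1 HET library. WT replicate 1 was the highest, and 1 library of each genotype was at 0. The fitted difference was -4.51 ± 3.28 (log2 fold change, SE; adjusted p = 0.971 by edgeR), and -1.63 without WT replicate 1. Of its exon bases, 19.9% are covered by A230020J21Rik on the opposite strand, which had 0 reads in every library.

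**Figure D3:**
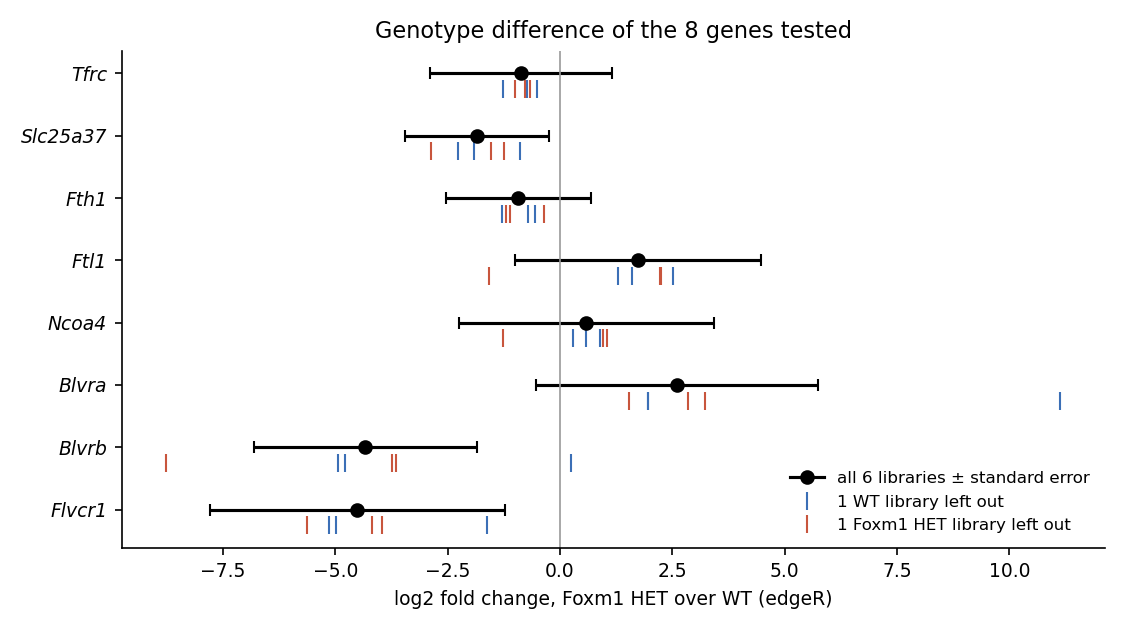
Log2 fold change of Foxm1 HET over WT for the 8 genes tested (points, with standard errors from edgeR as bars) and the values when 1 WT (blue) or 1 Foxm1 HET (red) library is left out (ticks). Ftl1, Ncoa4 and Blvrb had ticks on the other side of 0, at -1.57, -1.27 and 0.24, and the single tick at 11.13 is Blvra without WT replicate 1.

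The members thus fell into genes present in every library and genes present in some. At least 10 reads in all 6 libraries were found for 5 members, Tfrc, Slc25a37, Fth1, Ftl1 and Ncoa4, as for 30.7% of all genes tested. The other 3 tested members, Blvra, Blvrb and Flvcr1, had at least 10 reads in 3 libraries, as had 20.8% of all genes tested. By library, 9, 6 and 6 of the 10 members reached 10 reads in the WT mice, against 9, 5 and 7 in the Foxm1 HET mice. Over all genes tested the shares at that depth were 84.6%, 74.7% and 66.8% per WT library against 95.3%, 50.6% and 92.6% per Foxm1 HET library, so the library with the fewest members was also the one with the fewest of all genes. The SD within genotype was under the median of all genes tested (3.13) for the 5 genes present in every library, from 0.68 for Tfrc to 2.24 for Ftl1, and for Flvcr1 (2.65), whose level was near the floor. It was above the median for Blvra (3.95) and Blvrb.

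**Figure D4:**
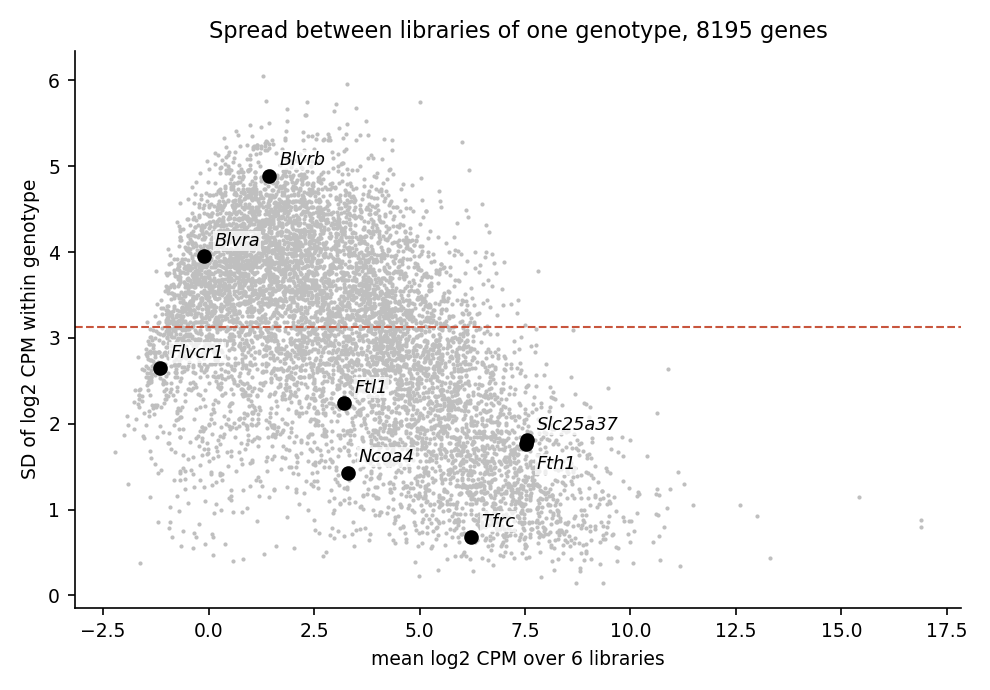
SD of log2 CPM between libraries of the same genotype (vertical) against mean log2 CPM over the 6 libraries (horizontal) for all 8195 genes tested (grey), with the 8 members tested in black and the median SD of 3.13 as a dashed line. Tfrc lies near the lower edge at 0.68 and Blvrb near the upper edge at 4.89.

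The normalized values deposited by the authors were compared as well. These are log2 values that were corrected for gene length and given a common distribution in all libraries. Their Foxm1 HET minus WT differences were -0.43 for Tfrc, -1.09 for Slc25a37, -0.32 for Fth1, -0.35 for Ftl1 and -0.46 for Ncoa4. Hmox1 and Blvra were higher by 1.35 and 2.08, and Blvrb and Flvcr1 differed by -1.67 and -1.35. For Ftl1 and Ncoa4 the direction was the opposite of the fit on counts. Slc11a2 differed by 0.17. With limma on these values, 0 of the 10 members and 0 of 12179 genes had an adjusted p under 0.05, and 576 genes had an unadjusted p under 0.05.

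A wider list of 60 other genes of iron and heme handling was described in the same way. Reads were absent from every library for 14 of them, among them Hamp, which encodes the iron hormone hepcidin, and its regulators Hjv and Tmprss6, and 29 were tested. Of these 11 were higher and 18 lower in Foxm1 HET, with a median log2 fold change of -0.50, and 0 had an adjusted or an unadjusted p under 0.05 in edgeR's test. By role, 2 of 6 uptake genes, 4 of 9 genes of storage, chaperones and mitochondrial iron, 2 of 7 genes of heme transport and breakdown and 3 of 7 regulators were higher, and none of the 4 export genes could be tested. Slc40a1, the iron exporter ferroportin, had 30, 0 and 0 reads per WT library against 1414, 1 and 1 per Foxm1 HET library.

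The genotypes did not overlap for 1 of the 29 genes (3.45%, against the 8.68% of all genes tested). This was Aco1, which encodes iron regulatory protein 1, one of the proteins that bind the hairpins printed above. It had 6093, 1036 and 430 reads per WT library (replicates 1 to 3) against 32, 4 and 590 per Foxm1 HET library. Its mean log2 CPM came to 6.13 ± 1.76 (SD, n = 3) for WT beside 1.06 ± 2.40 (SD, n = 3) for Foxm1 HET. Aco1 was fitted at -4.48 ± 2.50 (log2 fold change, SE; unadjusted p = 0.0733, adjusted p = 0.9 by edgeR; adjusted p = 0.116 by DESeq2), and at -7.24 to -2.67 with any single library omitted. In CPM without scaling factors the genotypes overlapped, with 20.0 CPM in WT replicate 3 and 22.9 in Foxm1 HET replicate 3. Ireb2, which encodes the second iron regulatory protein, had 575, 417 and 2303 reads per WT library against 498, 2 and 3481 per Foxm1 HET library, and was fitted at -0.96 ± 2.31 (adjusted p = 0.998 by edgeR).

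**Figure D5:**
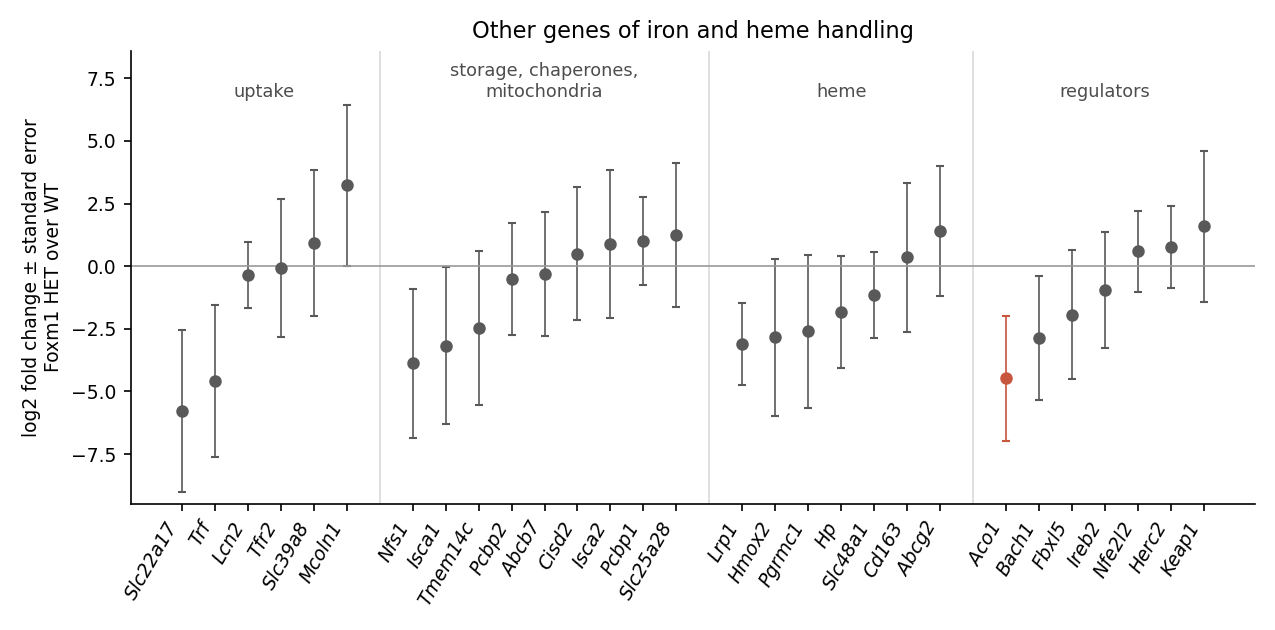
Log2 fold change of Foxm1 HET over WT with standard errors from edgeR (vertical) for the 29 other iron and heme genes tested, grouped by role and ordered within each group. Aco1 (red, -4.48) is the 1 gene whose genotypes did not overlap on log2 CPM.

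Nfe2l2 and Bach1 encode the activator and the repressor best known for control of Hmox1. Nfe2l2 had 2464, 5094 and 4820 reads per WT library against 13936, 2710 and 7618 per Foxm1 HET library (fitted at 0.60 ± 1.61, adjusted p = 0.998 by edgeR), and Bach1 had 2230, 297 and 2142 against 862, 10 and 406 (fitted at -2.87 ± 2.47, adjusted p = 0.985 by edgeR). Both were named after their values were seen. Their libraries overlapped between the genotypes. Hmox2, the constitutive heme oxygenase, named in the same way, had 241, 112 and 1 reads per WT library against 23, 1 and 60 per Foxm1 HET library. Hmox2 was fitted at -2.84 ± 3.12 (adjusted p = 0.998 by edgeR), and its libraries overlapped between the genotypes as well.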

How the data were processed

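RNA-Seq was performed on LT-HSCs of 3 WT and 3 Foxm1 HET mice. According to the study, STAR 2.7.2b placed single reads on GRCm38, and the processing notes also name limma. The labels and the study differ on RNA isolation and library kit (total RNA depleted of ribosomal RNA, or a Clontech kit). The authors deposited gene-level counts without normalization and a table on a log2 scale, whose ranks in each library follow reads per base of gene length. The counting program and its use of strand are not given in the sources used here. The deposited gene lengths were used for TPM.

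The counts entered edgeR 4.0.16 (R 4.3.3) over all genes (default low-count filter, TMM scaling, quasi-likelihood test, Benjamini-Hochberg adjustment over 8195 genes). Log2 CPM used a prior count of 2. Standard errors were derived from each log2 fold change and its F statistic, and the 95% intervals from these. Single values were compared by exact permutation tests. Read sharing and hairpins were searched in GENCODE M21 transcripts. Alternatives were RLE, upper-quartile and no scaling, the filter left out or raised to 10 counts in each library, a replicate block, DESeq2 1.42.0, limma 3.58.1 (voom, and the normalized table) and each library left out. PCR duplicates cannot be recognized in counts, so precision rests on the spread between libraries. According to its methods the study names 3 pairs of mice, and the labels do not say which mouse gave which library. The p-values thus rest on the spread between these libraries. In edgeR the estimate of that spread is partly shared over genes (common biological coefficient of variation 1.66). A standard error therefore need not follow a gene's own SD. Within genotype, Tfrc had an SD of 0.68 and a standard error of 2.03, and Blvrb had 4.89 and 2.49.

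The members and lists were chosen with earlier results of these data known. Named were all members, Foxm1, genes of the wider list past the test or not overlapping, markers at 0 in all libraries or highest in a list (for some lists the highest is not reported here), and the genes said in the text to be named after their values were seen. Slamf1, Ly6a, Kit, Hba-a2, Hbb-bs, Slc40a1, Ireb2, Gm16867, Hamp, Hjv and Tmprss6 were also named after their values were seen. Markers of B lymphoid cells summed to between 0 and 165 TPM, with Cd79a, Ms4a1, Vpreb1, Igll1 and Ebf1 at 0 in all libraries, and those of megakaryocytes, led by Vwf, to between 2.75 and 111 TPM, with Gp6 at 0.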

Additional observations from a re-analysis of the deposited data

How the results depend on the processing

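No alternative gave a member an adjusted p under 0.05, while of all genes, against 27, 10 were called with RLE, 43 with upper-quartile scaling, 7 with library size only, 0 with at least 10 counts in every library, 194 by DESeq2, 4 by limma-voom, 0 by limma on the normalized table and 0 to 29 with each library left out. The median log2 fold change of the members, -0.90 over 8, was -0.47 with upper-quartile scaling and -0.31 with library size only. It was -0.47 with at least 10 counts in every library (5 members). With no filter it was -0.11 and in the normalized table -0.39 (10 members each). The 10 include Slc11a2 and Hmox1, fitted at 7.77 and 2.62 with no filter. Medians over 5 or 10 members are thus of other sets of genes than -0.90. The members' median ranged from -1.25 to 0.24 with each library left out, the highest without WT replicate 2. These fits kept 8 or 9 members, and both ends of that range rest on 9, so these medians are not all over the same genes. Scaling also moved the median of all genes, from -0.26 to 0.14 with upper-quartile scaling. Relative to it the members' median was -0.64, and -0.86 (limma-voom, 8 members) to -0.35 (no filter, 10 members) in the alternatives with all libraries. With a library left out this relative value was -1.15 (without WT replicate 1, 8 members) to 0.01 (without WT replicate 2, 9 members). Tfrc, Slc25a37, Fth1, Blvra and Flvcr1 kept their direction in all alternatives run, though not their size (Fth1 from -1.29 to -0.13, Tfrc from -1.26 to -0.43). Ftl1 and Ncoa4 turned with the replicate block (-0.37 and -0.42), limma-voom (-0.24 and -0.52) and the normalized table (-0.35 and -0.46). With each library left out, Ftl1 ranged from -1.57 to 2.51, Ncoa4 from -1.27 to 1.05 and Blvrb from -8.76 to 0.24. The log2 ratio of Fth1 to Ftl1, -1.33, was 0.03 in the normalized table and 1.40 without Foxm1 HET replicate 2, its highest value with a library left out, and -2.96 at its lowest. The cause was not tested. The study names 3 pairs of mice, but the labels do not tie the replicate numbers to them, and same-numbered libraries showed no shared deviation (r = 0.016, -0.025 and -0.069), and the block was run as an alternative only. With the replicate block edgeR called 0 genes, and 108 had an unadjusted p under 0.05.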
